A study of Mus musculus with 12 samples.

Results

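The genes of cholesterol and fatty acid synthesis were followed in RNA-seq libraries of Ocy454, an osteocyte-like cell line from the mouse. A list of 32 genes was taken by gene symbol, with the enzymes of sterol synthesis and the SREBP2 side of the pathway set beside the fatty acid genes of SREBP1 and the cholesterol exporters driven by LXR. Of these, 31 had a gene ID among the 37583 counted, and the RNA level of Hmgcs1 was not analysed here. A gene with 0 counts in 2 or more libraries was not tested, which removed Abcg1 and left 30 of the 32 genes among the 14904 genes tested. The libraries form 4 groups of 3, namely control static, control FFSS, DKO static and DKO FFSS, where FFSS stands for 3 h of fluid flow shear stress. Control cells are those that the labels call the original cells, and the DKO line is described there as deficient in HDAC4 together with HDAC5, a pair of class IIa histone deacetylases that bind and repress transcription factors of the MEF2 family. All cells descended from a single-cell sub-clone of Ocy454 that carries a temperature-sensitive T antigen, and they were differentiated at the temperature that inactivates it before FFSS, which was produced by orbital rotation of the culture. The study used Cas9 to delete genes in this line, and the sources used here do not state whether it is 1 clone, so genotype and cell line cannot be told apart. They also do not say that replicates came from separate cultures, so the p-values measure the spread between these libraries, which may be technical.

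Cells make cholesterol from acetyl-CoA. The mevalonate enzymes build isoprenoid units and join them into farnesyl diphosphate, which is also used to prenylate proteins, and the later enzymes turn it into squalene, lanosterol and finally cholesterol. SREBP2, encoded by Srebf2, drives the sterol genes, and SREBP1, encoded by Srebf1, drives mainly the genes of fatty acid synthesis. Both are held in the endoplasmic reticulum with their escort SCAP, which the proteins INSIG1 and INSIG2 retain there when sterols are plentiful, and both are released for cleavage when sterols run low. Nuclear receptors of the LXR family sense oxysterols and turn on the exporters ABCA1 and ABCG1 as well as Srebf1. In bone, the enzyme farnesyl diphosphate synthase (Fdps) is best known as the target of nitrogen-containing bisphosphonates.

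The stretches of 250 bases before the gene starts were read from RefSeq (build GRCm38.p6), which held 32 entries for 24 of the listed genes.
They were searched on both strands for CCAAT, the core of the box bound by NF-Y, a partner of SREBP at sterol promoters, and for the letters TCACNCCAC (a sterol regulatory element), CACGTG (an E-box, which SREBP also binds) and GGGCGG (a GC box).
CCAAT stood in at least 1 entry of all 12 sterol synthesis enzymes that had one, and of 1 of 5 fatty acid genes, Fasn.
Over all entries, CCAAT was present in 18 of 32 (56.2%), compared with 33.8% of the 32851 stretches of the same length in the table.
The GC box was present in 71.9% of the listed genes' entries against 32.7% of all, and the E-box in 15.6% against 6.02%.
The sterol regulatory element in this spelling was found in Hmgcs1 alone (3.12% of entries against 1.05% of all), which says only that these letters are not in the other windows.
A match is a description of the sequence and not a binding site.
Shown here, 5′ to 3′ with CCAAT or its reverse complement in capitals, are the stretch with the most boxes (Mvk), a squalene to cholesterol enzyme with a small spread between libraries (Hsd17b7), the sterol-responsive regulator Insig1, and a pair of fatty acid genes with and without the box (Fasn and Elovl6).
Mvk (chr5:114444019-114444268, plus strand): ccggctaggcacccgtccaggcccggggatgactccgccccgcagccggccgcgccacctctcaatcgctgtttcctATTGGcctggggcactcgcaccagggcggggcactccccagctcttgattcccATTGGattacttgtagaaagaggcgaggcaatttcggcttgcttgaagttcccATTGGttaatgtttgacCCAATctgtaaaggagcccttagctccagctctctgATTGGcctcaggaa
Hsd17b7 (chr1:169969206-169969455, minus strand): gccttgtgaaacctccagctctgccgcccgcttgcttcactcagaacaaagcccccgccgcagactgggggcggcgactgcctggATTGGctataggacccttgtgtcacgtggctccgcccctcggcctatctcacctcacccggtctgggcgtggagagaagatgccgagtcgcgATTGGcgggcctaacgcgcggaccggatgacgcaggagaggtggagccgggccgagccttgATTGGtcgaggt
Insig1 (chr5:28071162-28071411, plus strand): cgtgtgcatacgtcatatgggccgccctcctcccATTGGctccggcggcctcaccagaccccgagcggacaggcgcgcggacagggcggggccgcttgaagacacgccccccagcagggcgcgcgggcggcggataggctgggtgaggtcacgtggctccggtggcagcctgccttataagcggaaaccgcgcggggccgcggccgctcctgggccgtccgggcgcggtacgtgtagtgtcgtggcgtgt
Fasn (chr11:120824548-120824797, minus strand): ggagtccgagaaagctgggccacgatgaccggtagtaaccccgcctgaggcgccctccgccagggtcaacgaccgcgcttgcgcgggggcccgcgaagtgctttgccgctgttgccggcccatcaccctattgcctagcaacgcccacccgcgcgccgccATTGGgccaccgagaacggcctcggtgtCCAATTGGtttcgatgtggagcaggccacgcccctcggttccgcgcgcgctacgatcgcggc
Elovl6 (chr3:129532136-129532385, plus strand): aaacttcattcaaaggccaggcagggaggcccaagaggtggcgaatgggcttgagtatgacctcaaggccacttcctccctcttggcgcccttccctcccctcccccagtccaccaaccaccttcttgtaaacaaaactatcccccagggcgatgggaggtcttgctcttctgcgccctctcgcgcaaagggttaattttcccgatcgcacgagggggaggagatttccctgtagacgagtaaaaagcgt

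The Mvk stretch held 5 boxes, those of Hsd17b7 and Fasn 3 each (in Fasn, a pair of them overlaps), that of Insig1 1, and that of Elovl6 0.

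Between 17.6 and 19.2 M reads per library were assigned to genes, so that 3 counts, taken as the floor, were worth between 0.146 and 0.178 CPM (counts relative to the library total after TMM scaling). Control FFSS replicate 1 stood apart from replicates 2 and 3. A chi-square comparison of counts over genes gave 63.8 and 58.0 per degree of freedom against these, and between 2.02 and 6.45 for every other pair of replicates. Reads outside annotated genes made up 5.87% of control FFSS replicate 1 and 9.19% and 10.0% of replicates 2 and 3, compared with 5.10% to 5.21% in control static, 7.07% to 7.14% in DKO static and 7.93% to 8.55% in DKO FFSS libraries. Hdac5 ranged from 127 to 141 CPM in control static and from 80.1 to 90.7 CPM in DKO static libraries, but from 71.1 to 90.1 CPM in control FFSS and from 92.3 to 93.2 CPM in DKO FFSS libraries, where every DKO library was above every control library. The Hdac4 entry with the larger difference ranged from 23.8 to 29.1 CPM in control static, 30.7 to 42.6 CPM in control FFSS, 12.1 to 16.9 CPM in DKO static and 12.7 to 14.0 CPM in DKO FFSS libraries. The other Hdac4 entry ranged from 21.0 to 24.9 CPM in control static and 17.1 to 18.0 CPM in DKO static libraries. Under FFSS it ranged from 19.7 to 31.1 CPM in control and 16.1 to 17.8 CPM in DKO libraries. RNA levels do not show whether a gene edit removed the protein. Of 10 osteocyte markers, Mepe, Fgf23, Dkk1 and Tnfsf11 averaged under 1 CPM and Sost 5.34 ± 6.14 CPM in control static cells, while Irx5, Tnfrsf11b, Phex, Dmp1 and Pdpn averaged 142, 105, 33.3, 29.4 and 28.4 CPM. In DKO static cells 7 of the 10 had a higher mean, such as Sost at 2062 ± 30.2 CPM, Pdpn (5.11 CPM) and Tnfrsf11b (64.5 CPM) had a lower one, and Fgf23 had at most 1 count in any library. The summed osteoblast markers reached 30497 to 36874 CPM in control static and 96326 to 107748 CPM in DKO static cells. Col1a1 and Col1a2 made up most of these sums, with means of 17126 and 12421 CPM in control static and 50438 and 39370 CPM in DKO static cells. The other osteoblast markers had higher means in DKO static cells too, but Alpl differed little (1633 ± 88.8 against 1820 ± 123 CPM). Among 9 adipocyte markers, 7 were under 1 CPM in every library, Adipoq and Plin1 among them. The 4 endothelial markers were all under 1 CPM. In such bulk samples, fewer cells of a type and less RNA per cell cannot be told apart.

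Compared per length, as CPM per kilobase of exon, in control static cells, the desaturase Scd2 stood highest at 358 ± 15.4 (SD, n = 3), followed by Fads1 (120.4 ± 6.18) and Fads2 (82.2 ± 3.80), desaturases of the synthesis of long polyunsaturated fatty acids. In that pathway Fads2 acts first and Fads1 later. Among the sterol enzymes, Ebp (76.5 ± 2.57) and Cyp51 (61.7 ± 2.80) led, and Srebf2 (72.9 ± 2.36) was above Srebf1 (41.1 ± 0.486) on the same scale. The spreads of Fads2 and Ebp, of Ebp and Srebf2, and of Mvk, Pmvk and Nsdhl (all near 11.0 CPM per kilobase) overlapped, so their order is not settled by these libraries. The lowest of those tested were Acaca (2.37 ± 0.173), Elovl6 (2.28 ± 0.101), Tm7sf2 (1.35 ± 0.206), Idi1 (1.06 ± 0.0936) and Abca1 (1.00 ± 0.0954). The spreads of Acaca and Elovl6, of Tm7sf2 and Idi1, and of Idi1 and Abca1 overlapped, so the order within each pair is not settled. Reads that align to several places were not counted, and 84.6% of the 50-base windows of Idi1, 63.2% of those of Fdps, 60.2% of Acaca, 36.3% of Acat2, 32.5% of Insig1 and 22.2% of Fdft1 occur elsewhere in the mm9 genome, so their levels per length may understate the RNA present and are less comparable with those of other genes. For 19 genes, Abcg1 included, no window occurs elsewhere. Abcg1 had a count in 1 of 12 libraries (0.0553 CPM in DKO FFSS replicate 1) and 0 in the other 11, at a floor of 3 counts, and no fold change is given for it.

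Static DKO cells were compared with static control cells to see how the sterol and fatty acid programs stand in the absence of flow. Sterol synthesis RNA was higher in DKO cells. All 5 mevalonate and isoprenoid enzymes tested, 8 of 9 enzymes from squalene to cholesterol, both other sterol genes (Stard4 and Acat2) and the exporter Abca1 rose, while 3 of 8 fatty acid genes did. In all, 22 of 30 genes were higher and 2 lower (edgeR quasi-likelihood test, adjusted p under 0.05), compared with 27.0% and 27.2% of all genes tested, and 15 of 30 passed with more than a 2-fold change, compared with 15.3% of all genes in either direction. The median log2 fold change was 1.21 over the 14 sterol enzymes, 0.24 over the 8 fatty acid genes and 0.01 over all genes tested.

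**Figure D1:**
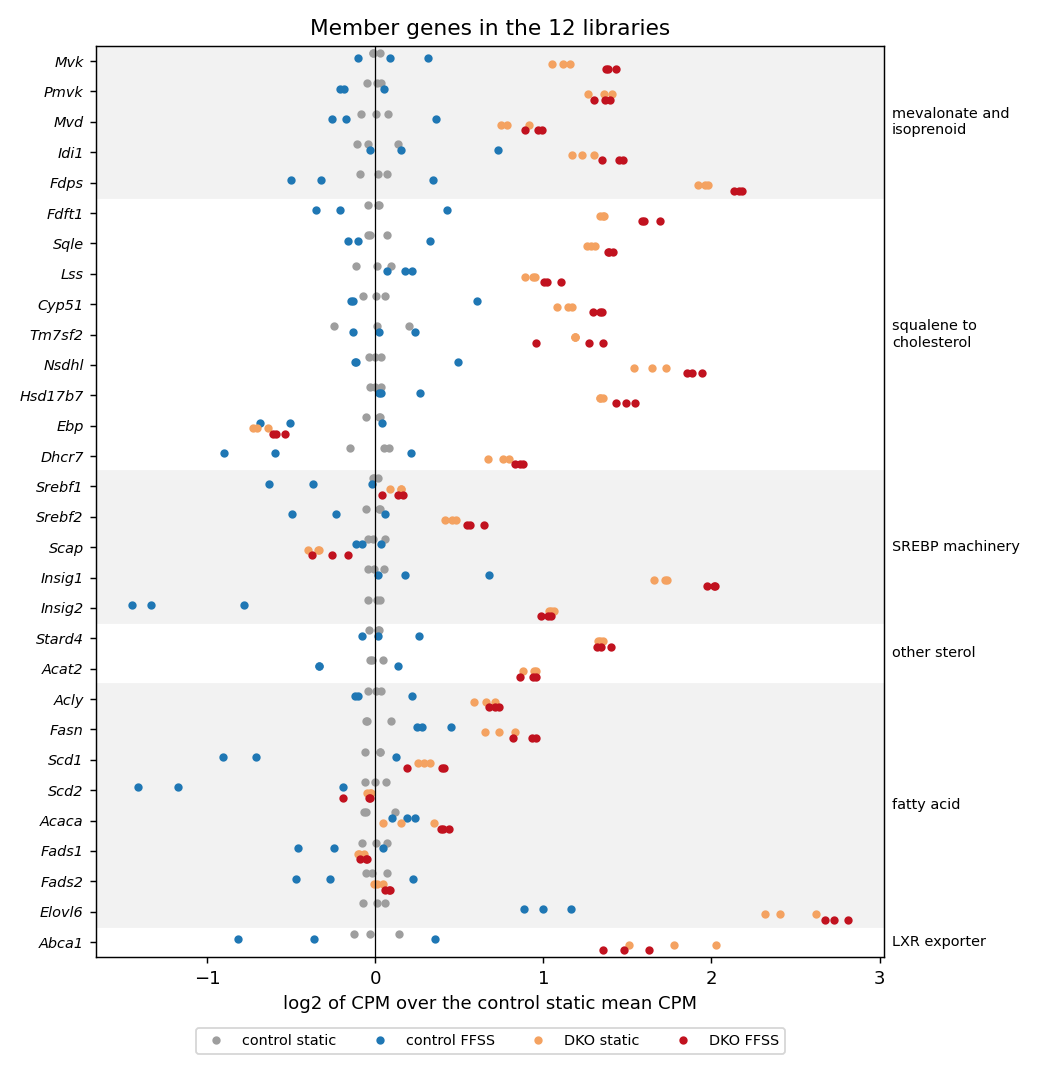
The log2 ratio of CPM to the control static mean CPM (x axis) for the 30 tested genes (y axis, shaded by group) in each of the 12 libraries, 1 point per library, coloured by group. Points of DKO libraries lie right of 0 for most sterol genes, and control FFSS points are spread more widely than those of the other groups.

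The mevalonate branch was higher at each of the 5 enzymes tested. Mevalonate kinase (Mvk) went from 29.4 ± 0.465 to 63.4 ± 2.35 CPM (SD, n = 3 each), a log2 fold change of 1.11 ± 0.08 (SE), phosphomevalonate kinase (Pmvk) from 16.6 ± 0.469 to 42.2 ± 2.13 CPM (1.35 ± 0.08), and the decarboxylase Mvd from 54.5 ± 3.06 to 95.9 ± 5.91 CPM (0.82 ± 0.13). The isomerase Idi1 rose by 1.23 ± 0.17 on the log2 scale, from 3.03 ± 0.268 CPM. Fdps (chr3:88897514-88905881 in mm9) was at 46.6, 43.1 and 48.2 CPM in the control static libraries and at 181, 179 and 174 CPM in the DKO static libraries. Each DKO library was far above each control library, and the fold change of 3.87 (log2 1.95 ± 0.17, edgeR adjusted p = 2.02e-06) was the highest among the sterol enzymes.

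From squalene on, squalene synthase (Fdft1, log2 1.35 ± 0.15), squalene epoxidase (Sqle, 1.28 ± 0.10), lanosterol synthase (Lss, 0.93 ± 0.06), the lanosterol demethylase Cyp51 (1.13 ± 0.16), the sterol reductase Tm7sf2 (1.19 ± 0.14), Hsd17b7 (1.34 ± 0.06) and the last reductase Dhcr7 (0.74 ± 0.22) rose. Hsd17b7, a ketosteroid reductase of the pathway, went from 74.0 ± 1.67 to 188 ± 1.31 CPM and Sqle from 169.5 ± 7.33 to 413 ± 6.74 CPM. Nsdhl (chrX:70163896-70203853), a dehydrogenase that removes methyl groups from lanosterol derivatives, was at 31.0, 32.6 and 31.7 CPM in control static and 105, 99.5 and 92.4 CPM in DKO static libraries. Its fold change of 3.12 (log2 1.64 ± 0.13, edgeR adjusted p = 3.84e-07) was the highest of these enzymes, and the groups did not overlap. Ebp (chrX:7762455-7770638), the sterol isomerase that acts near the end of the pathway, moved the other way, from 180.0, 169.9 and 180.4 CPM in control to 109, 114 and 107 CPM in DKO static libraries. All 3 DKO libraries were below all 3 control libraries, with a 1.61-fold fall (log2 −0.69 ± 0.14, edgeR adjusted p = 0.00131). Dhcr7 did not pass without control static replicate 2. Fdft1 shares 26.9% of its exonic bases with the opposite-strand gene Ctsb and Tm7sf2 15.3% with 1110014N23Rik on the same strand, and reads there were counted for neither gene.

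Among the SREBP machinery, the retention factors rose most. Insig1, itself a classic SREBP target, went from 122 ± 4.18 to 398 ± 11.1 CPM (log2 1.71 ± 0.13), and Insig2 (chr1:123200930-123229166) from 136, 129.7 and 135 to 275, 279 and 273 CPM, a 2.07-fold difference (log2 1.05 ± 0.13, edgeR adjusted p = 1.69e-05). Srebf2 (chr15:81977696-82035806) was at 350.1, 369.7 and 371 CPM in control and 498, 486 and 508 CPM in DKO static libraries, 1.37-fold higher with no overlap (edgeR adjusted p = 0.00161). Srebf1 (chr11:60012591-60036083), at 229.7, 231 and 235 CPM in control and 258, 247 and 258 CPM in DKO static libraries, did not pass (log2 0.13 ± 0.11, edgeR adjusted p = 0.334), although its libraries did not overlap. Scap (chr9:110235792-110287450), the escort of both factors, fell from 113, 121 and 116 to 88.4, 92.3 and 92.7 CPM (log2 −0.36 ± 0.06, edgeR adjusted p = 2.63e-04). The sterol carrier Stard4 rose from 59.0 ± 1.26 to 149.5 ± 1.63 CPM, and the thiolase Acat2, which makes acetoacetyl-CoA, from 43.4 ± 1.25 to 82.5 ± 2.28 CPM.

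The fatty acid genes were split. Elovl6 (chr3:129235304-129341413), which elongates palmitate, was at 13.6, 12.9 and 14.1 CPM in control and 71.9, 83.4 and 67.7 CPM in DKO static libraries, and its 5.49-fold difference (log2 2.46 ± 0.09, edgeR adjusted p = 1.52e-10) was the largest of the 30 genes. The synthase Fasn (chr11:120667254-120685492), at 409, 369 and 369 and 602, 679.8 and 637 CPM, was 1.67-fold higher, and ATP citrate lyase (Acly), which supplies cytosolic acetyl-CoA to both pathways, went from 234 ± 6.47 to 368 ± 15.8 CPM (1.58-fold). The carboxylase Acaca (log2 0.19 ± 0.09) and the desaturases Scd1 (0.29 ± 0.22), Scd2 (−0.03 ± 0.25), Fads1 (−0.09 ± 0.09) and Fads2 (0.02 ± 0.13) did not pass. Abca1 (chr4:53043659-53172767), the LXR-driven exporter of cholesterol, was at 11.5, 9.53 and 10.2 CPM in control and 29.6, 42.3 and 35.6 CPM in DKO static libraries. Its DKO libraries differed from each other more, relative to their mean, than those of the other 29 genes, but all were above the control libraries (3.45-fold, log2 1.79 ± 0.23, edgeR adjusted p = 5.86e-05). Srebf1, another LXR target, did not pass, as given above. With the share of reads outside genes as a covariate, 28 of 30 genes passed in place of 24, compared with 58.1% of all genes in that fit. The share was 5.10% to 5.21% in control static and 7.07% to 7.14% in DKO static libraries. It follows genotype there, and that fit cannot tell the share and genotype apart. Markers of cell states moved with genotype as well. The sum of 10 osteocyte markers went from between 322 and 369.6 to between 4019 and 4092 CPM and that of 7 chondrocyte markers from between 79.0 and 104 to between 2378 and 2969 CPM. Col2a1 (a mean of 1818 CPM) and Col10a1 (602 CPM) made up most of the chondrocyte sum in DKO static cells. Acan, at a mean of 5.96 CPM in control static and 4.97 CPM in DKO static cells, was the only chondrocyte marker without a higher mean. Of 9 adipocyte markers, Adipor2, which many cell types express, made up nearly all of the sum (a mean of 155 CPM in control static and of 160.3 CPM in DKO static libraries), Fabp4 was at 2.22 and 0.663 CPM, and the other 7 were under 1 CPM. The 6 macrophage and osteoclast markers summed to between 99.9 and 105 CPM in control and between 57.8 and 60.6 CPM in DKO static libraries, with Ptprc, the marker of all leukocytes, at 3 counts or fewer in every library. Their part in the results on sterol and fatty acid genes was not tested.

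Under FFSS the same comparison of genotypes was made with libraries that share none with the static comparison. Higher in DKO cells were 26 of 30 genes (all genes, 27.0%) and lower was 1, Scap (all genes, 29.6%), and 17 of 30 passed with more than a 2-fold change (all genes, 17.2%). The median log2 fold change was 1.25 over the 14 sterol enzymes, 0.64 over the 8 fatty acid genes and −0.05 over all genes. Of the 14 sterol enzymes, 13 rose, and Ebp, at 139 ± 38.0 CPM in control and 119 ± 2.99 CPM in DKO FFSS cells, did not pass (log2 −0.23 ± 0.14). Fdps was at 58.3, 32.5 and 36.8 CPM in control FFSS and 209, 206 and 201 CPM in DKO FFSS libraries (4.83-fold, log2 2.27 ± 0.17, edgeR adjusted p = 6.45e-07). Insig2, at 77.6, 53.0 and 49.0 and 272, 264 and 275 CPM, differed 4.51-fold (log2 2.17 ± 0.13, edgeR adjusted p = 4.17e-08), and Nsdhl, at 44.6, 29.3 and 29.4 and 122, 115 and 117 CPM, 3.43-fold (log2 1.78 ± 0.13, edgeR adjusted p = 1.77e-07). For these 3 genes every DKO library was above every control library.

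**Figure D2:**
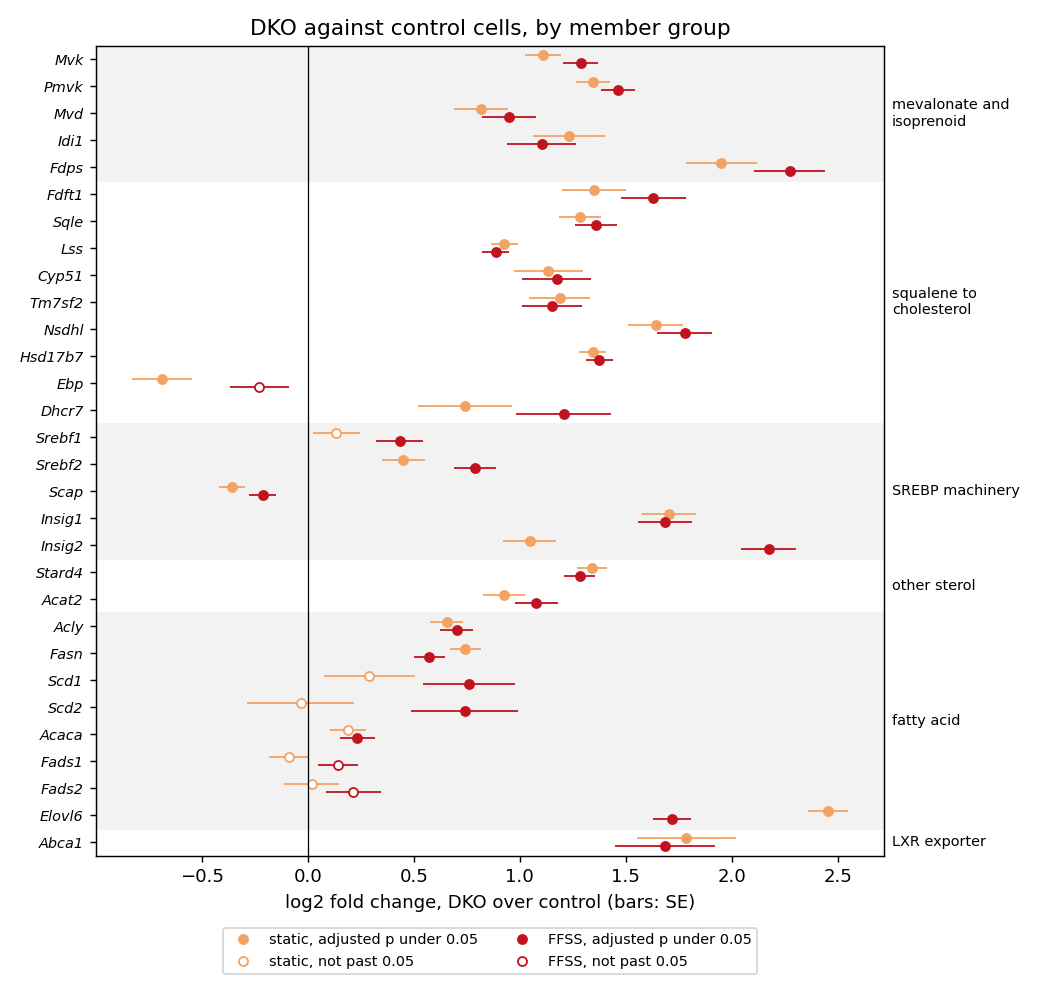
The log2 fold change of DKO over control cells (x axis, bars are SE) for the 30 tested genes (y axis, by group), in static and in FFSS libraries. Filled points passed an adjusted p of 0.05. Sterol enzymes other than Ebp lie to the right of 0 in both conditions, and the fatty acid genes other than Elovl6 mostly lie nearer to 0.

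More fatty acid genes were higher under FFSS, 6 of 8 rather than 3, where 27.0% of all genes were higher in either condition. Of these 8 genes, however, the interaction, which tests the difference between the conditions, passed for Elovl6 alone. Scd1 (log2 0.76 ± 0.22) and Scd2 (0.74 ± 0.25) were among the 6 that were higher under FFSS. Their control FFSS libraries ranged from 139 to 284 CPM for Scd1 and from 735 to 1709 CPM for Scd2. The Scd2 groups overlapped, and it no longer passed in 8 of 21 alternatives, among them library totals alone, every gene with any count, the fit of only the 6 libraries compared, and leaving out control FFSS replicate 2 (log2 0.52), control FFSS replicate 3, DKO FFSS replicate 1 or DKO FFSS replicate 3. Scd1 no longer passed in the fit of 6 libraries or without control FFSS replicate 3. Acaca was at 27.5, 25.9 and 28.5 CPM in control and 32.7, 31.7 and 31.9 CPM in DKO FFSS libraries (log2 0.23 ± 0.08, edgeR adjusted p = 0.0285). This small difference no longer passed in 5 of 21 alternatives. They were library totals alone and leaving out control FFSS replicate 2 or any 1 of the DKO FFSS libraries. Srebf1 passed here, with 229, 149.7 and 179 CPM in control and 260.3, 255 and 239 CPM in DKO FFSS libraries (1.35-fold, edgeR adjusted p = 0.00485), and Srebf2 was 1.73-fold higher. Scap was at 111, 108 and 119.8 and 97.9, 104 and 90.1 CPM (log2 −0.21 ± 0.06, edgeR adjusted p = 0.0104), which did not pass in the fit of 6 libraries or without DKO FFSS replicate 3. Elovl6 was 3.29-fold higher, and Abca1, at 13.3, 5.90 and 8.07 CPM in control and 32.2, 26.5 and 28.9 CPM in DKO FFSS libraries, 3.22-fold. The 13 sterol enzymes that passed lay between log2 0.89 (Lss) and 2.27 (Fdps).

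Control cells under FFSS were compared with static control cells to see the response to flow in the original cells. Single genes moved in both directions, and none of the 14 sterol enzymes tested from the main list passed. Insig2, Scd2 and Srebf1 fell, and Elovl6 and Fasn rose, so that 2 of 30 genes were higher (all genes, 17.7%) and 3 lower (all genes, 18.1%), and 2, Insig2 and Elovl6, passed with more than a 2-fold change (all genes, 5.93%). Elovl6 stood just past this limit and fell short of it without control static replicate 2 (log2 0.99). Of the 14 sterol enzymes, 0 passed by edgeR, 2 had an unadjusted p under 0.05 (46.3% of all genes) and DESeq2 passed 1 (Ebp, log2 −0.36 ± 0.14), and their median log2 fold change was 0.05, compared with 0.01 over all genes. Insig2, at 136, 129.7 and 135 CPM in static libraries, was at 77.6, 53.0 and 49.0 CPM in FFSS libraries, with no overlap, a 2.23-fold fall (log2 −1.16 ± 0.13, edgeR adjusted p = 7.13e-05). Elovl6, at 13.6, 12.9 and 14.1 CPM in static libraries, was at 30.4, 27.1 and 25.0 CPM in FFSS libraries, all above, a 2.03-fold rise (log2 1.02 ± 0.10, edgeR adjusted p = 9.25e-06). Fasn rose to 455, 463 and 523 CPM (log2 0.33 ± 0.07, edgeR adjusted p = 0.00371). The control static libraries are the reference here and in the static comparison of genotypes, so the values of the 2 comparisons are not independent.

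The control FFSS libraries differed in direction for many of these genes. Of 30 genes, 26 were higher in replicate 1 than in both others, compared with 42.6% of all genes tested. For 15 of 30, replicate 1 was above all 3 static control libraries while replicates 2 and 3 were both below all 3, as was the case for 5.65% of all genes. Cyp51, for example, was at 402, 242 and 239 CPM in the FFSS libraries, with static libraries from 252 to 276 CPM. Relative to the static mean, the median log2 difference of the 14 sterol enzymes was 0.32 in replicate 1, −0.12 in replicate 2 and −0.15 in replicate 3, while that of all genes was 0.00 in each. The fatty acid genes gave 0.20, −0.28 and −0.18 in the same order. Scd2 (chr19:44368166-44381354) was at 2038, 1870.1 and 1949.8 CPM in static and 1709, 735 and 868 CPM in FFSS libraries (log2 −0.82 ± 0.25, edgeR adjusted p = 0.0313), and Srebf1 was at 229, 149.7 and 179 CPM in FFSS libraries (log2 −0.32 ± 0.11, edgeR adjusted p = 0.0419). Scd2 was lower in all 3 libraries but most in replicates 2 and 3, and for Srebf1 replicate 1 lay just under the lowest static library.

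Left out of the fit, replicate 1 changed the picture. Without it, 16 of 30 genes were lower (28.3% of all genes) and 2 higher (26.7%), including 7 of 14 sterol enzymes that were lower, such as Dhcr7 (log2 −0.74 ± 0.08) and Ebp (−0.59 ± 0.06). Without replicates 2 and 3 instead, when the lone library was assumed to vary like the other groups, 16 of 30 were higher (10.0% of all genes) and 2 lower (15.5%), with 10 of 14 sterol enzymes higher, such as Cyp51 (0.58 ± 0.05) and Nsdhl (0.47 ± 0.08). With the share of reads outside genes as a covariate, 14 were higher (6.86% of all genes) and 1, Insig2, was lower (8.51%). Within groups that share varied most between control FFSS replicate 1 and replicates 2 and 3, so the adjustment rests mainly on that difference. Osteoblast marker RNA moved with the libraries too. The summed markers ranged from 10585 to 31292 CPM across the control FFSS libraries, and their part in these results was not tested. Insig2 was lower and Elovl6 and Fasn were higher than in static cells in each of these 3 fits, with Insig2 at log2 −1.39 ± 0.05 without replicate 1, −0.80 ± 0.06 without replicates 2 and 3 and −0.68 ± 0.08 with the covariate, although Fasn did not pass with the covariate. Scd2 and Srebf1 did not pass with the covariate (log2 −0.07 ± 0.18 and 0.03 ± 0.10), and neither passed with every gene with any count or in the fit of only the 6 libraries compared. Scd2 also failed when control FFSS replicate 2, control FFSS replicate 3 or any 1 static control library was left out, and so did not pass in 8 of 21 alternatives. Srebf1 failed by library totals alone, without control FFSS replicates 2 and 3 and without any 1 library other than control FFSS replicate 1, and so in 16 of 21.

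**Figure D3:**
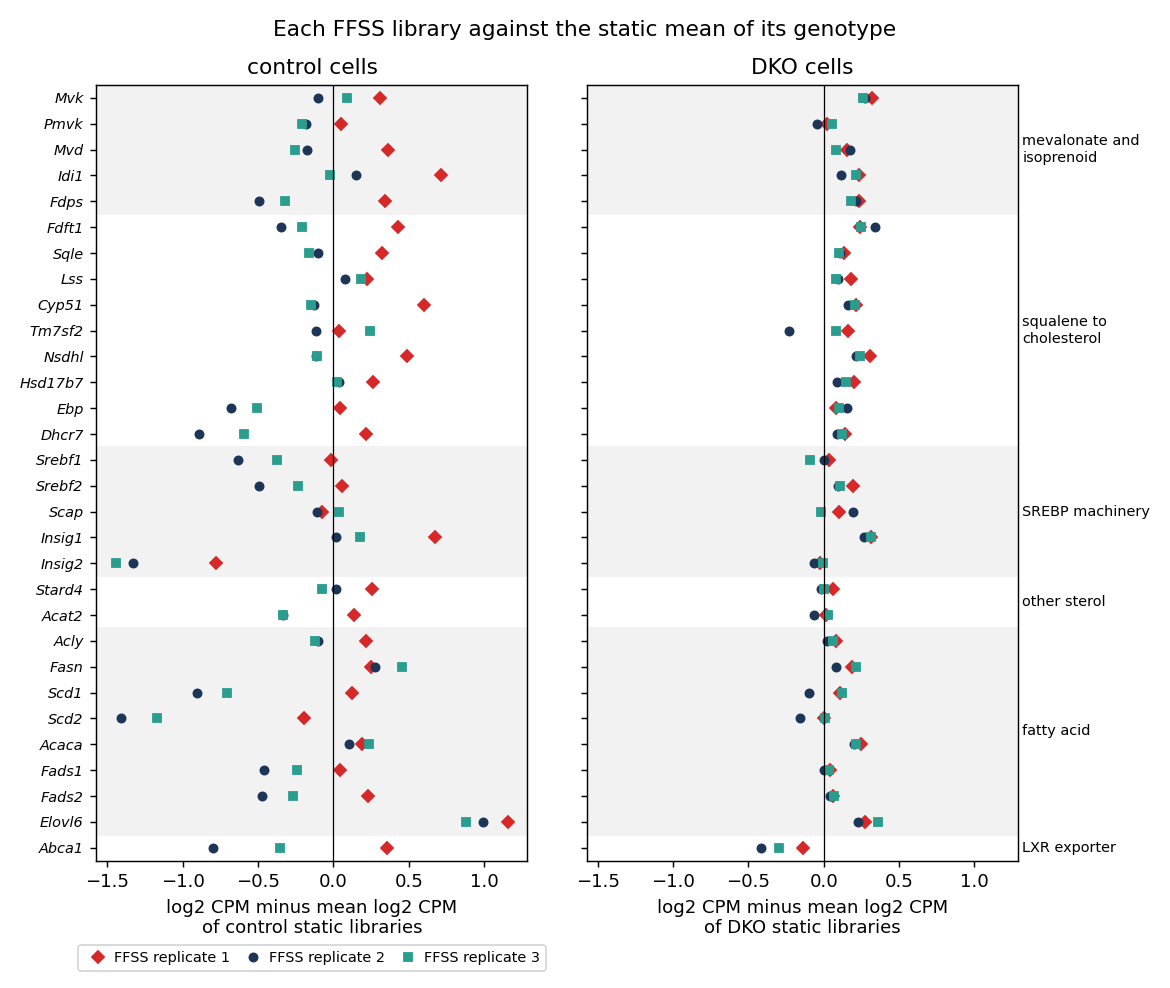
The log2 CPM of each FFSS library minus the mean log2 CPM of the static libraries of its genotype (x axis), for the 30 tested genes (y axis, by group), in control cells on the left and DKO cells on the right, with 1 symbol per FFSS replicate. In control cells replicate 1 lies to the right of replicates 2 and 3 for 26 of 30 genes, while in DKO cells the replicates lie close together and mostly right of 0.

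DKO cells under FFSS were compared with static DKO cells to see the response to flow in the line labelled DKO. The differences were small and mostly upward. By edgeR over all 12 libraries, 0 of 30 genes passed, where 0.376% of all genes were higher, 0.497% lower and 0.0872% past a 2-fold change. At an unadjusted p under 0.05 there were 6 of 30, compared with 13.5% of all genes, and DESeq2 passed 1, Mvk (log2 0.29 ± 0.09, DESeq2 adjusted p = 0.0446, against 1.16e-04 to 0.375 over the other alternatives). Control FFSS replicate 1 belongs to neither group compared. Leaving it out of the fit changes the shared estimate of the spread and the genes tested (14978 in place of 14904). Without it 8 of 30 passed (10.5% of all genes), and without control FFSS replicate 2, 1 did (1.57% of all genes). All 14 sterol enzymes had a positive log2 fold change, with a median of 0.14, compared with 0.06 for the fatty acid genes and −0.01 for all genes. The medians of the 14 sterol enzymes in the single libraries were 0.19, 0.13 and 0.13 above the DKO static mean. In 16 of 30 genes all 3 FFSS libraries were above all 3 static libraries, as was the case for 14.0% of all genes.

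Fitted on the 6 DKO libraries alone, where the control libraries do not enter the estimate of the spread, 12 of 30 genes rose and 0 fell, compared with 5.54% of all genes higher and 5.68% lower. They were the sterol enzymes Mvk, Fdps, Fdft1, Sqle, Cyp51, Nsdhl and Hsd17b7, the regulators Insig1 and Srebf2, and the fatty acid genes Fasn, Acaca and Elovl6. Insig1 rose from 403, 385 and 406 to 494, 479.7 and 495 CPM (log2 0.30 ± 0.04), and Fdft1 from 127, 127 and 125 to 149, 160.5 and 150.4 CPM (log2 0.28 ± 0.04). The other 10 were between log2 0.12 ± 0.04 (Sqle) and 0.29 ± 0.05 (Mvk), so the rises were at most about 1.24-fold. Insig2, which fell under flow in control cells, was at 275, 279 and 273 CPM in static and 272, 264 and 275 CPM in FFSS libraries (log2 −0.03 ± 0.12 in the fit of all libraries). Elovl6 was at 89.7, 86.6 and 95.2 CPM under FFSS, with all 3 libraries above the static ones, and Abca1 at 32.2, 26.5 and 28.9 CPM, with groups that overlapped. The share of reads outside genes was higher in each DKO FFSS library than in each DKO static library, and with that share as a covariate 13 of 30 genes were higher (5.02% of all genes). That share and flow cannot be told apart in the DKO libraries.

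The interaction, the response of DKO cells minus that of control cells, asked whether the response of a gene to flow differed between the cells labelled DKO and control. It passed for Insig2, which fell under flow in control cells and whose static and FFSS libraries overlapped in DKO cells, and for Elovl6, whose rise was larger in control cells. Higher was 1 of 30 genes (all genes, 2.28%) and lower 1 (all genes, 1.68%), and 1, Insig2, passed with more than a 2-fold difference (all genes, 0.651%). For Insig2 the interaction was 1.13 ± 0.18 on the log2 scale (SE, edgeR adjusted p = 0.00726), and for Elovl6 −0.74 ± 0.13 (edgeR adjusted p = 0.00808). Insig2 kept its sign and passed in all 20 alternatives, with estimates from 0.78 to 1.36, and Elovl6 did too, from −0.85 to −0.65. The other 28 genes did not pass, with the largest of their estimates for Scd2 (0.77 ± 0.36), Scd1 (0.47 ± 0.31) and Dhcr7 (0.47 ± 0.31). This count depended on control FFSS replicate 1. Without it 19 of 30 genes were higher (19.9% of all genes) and 2 lower (17.7%), among them Scd2 (1.24 ± 0.08), Dhcr7 (0.86 ± 0.10), Ebp (0.70 ± 0.07) and Fdps (0.62 ± 0.08). Without replicates 2 and 3 there were 1 higher (6.13% of all genes) and 3 lower (2.76% of all genes), Elovl6, Cyp51 and Insig1.

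**Figure D4:**
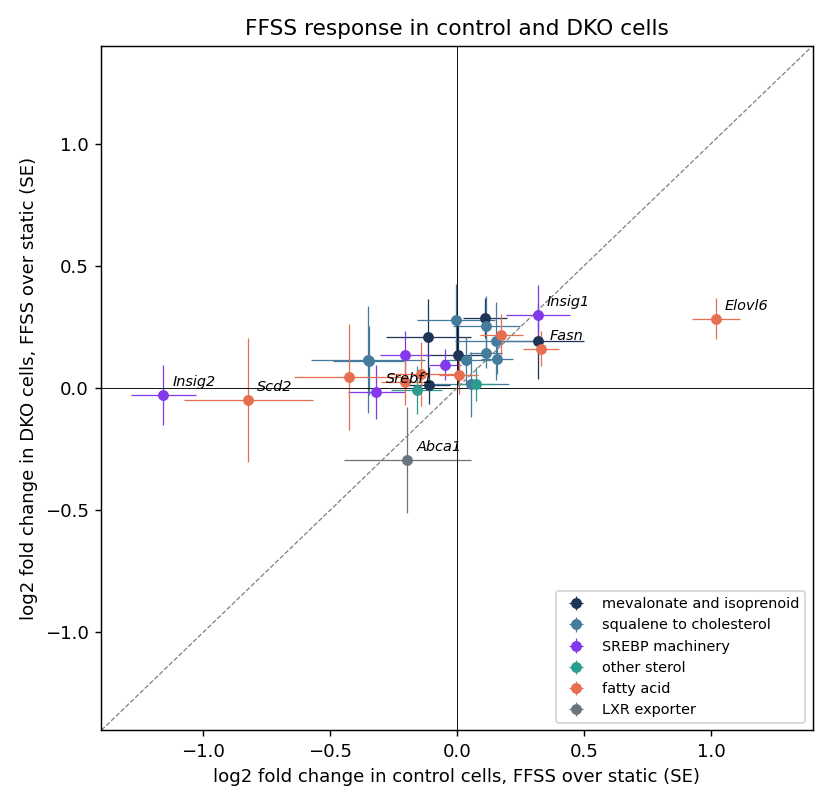
The log2 fold change of FFSS over static in control cells (x axis) against that in DKO cells (y axis) for the 30 tested genes, coloured by group, with SE bars and a dashed line of equal response. Insig2 lies far left near 0 on the y axis, Elovl6 far right below the dashed line, and the sterol enzymes lie above 0 on the y axis and on both sides of 0 on the x axis.

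**Figure D5:**
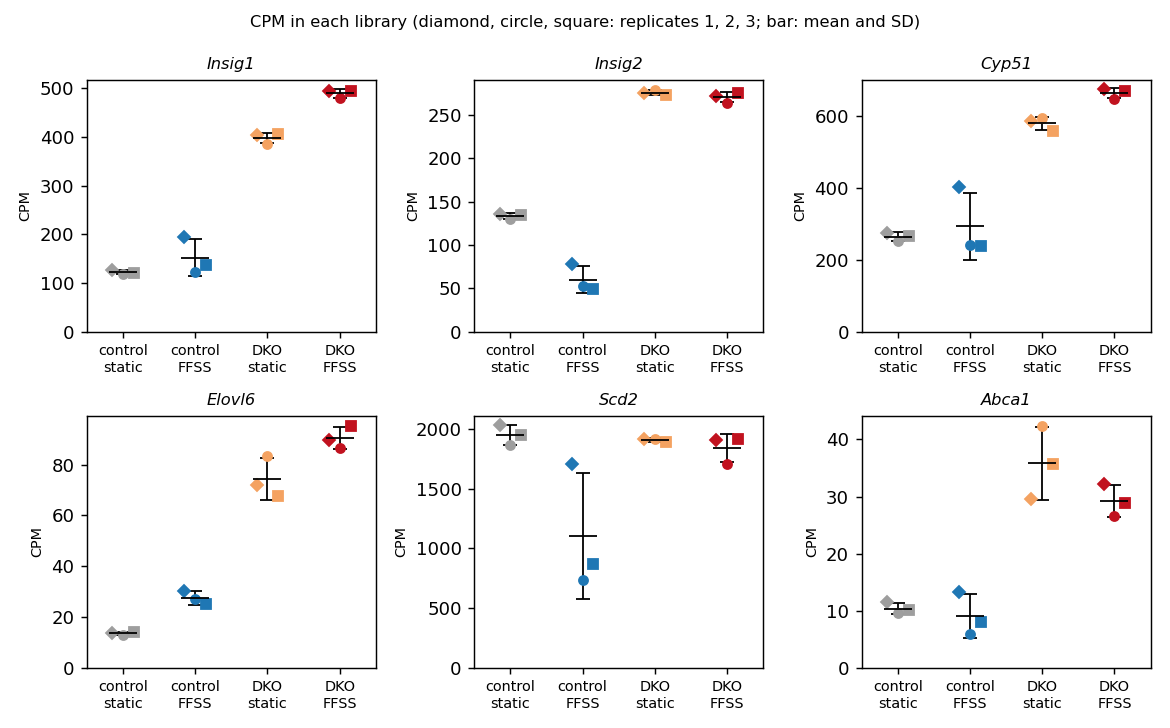
CPM (y axis) of Insig1, Insig2, Cyp51, Elovl6, Scd2 and Abca1 in each library (x axis, 4 groups of 3, with the mean and SD as bars). For Insig2 and Elovl6 all control FFSS libraries lie on the same side of the control static libraries, while for Insig1, Cyp51 and Abca1 control FFSS replicate 1 (diamond) lies above replicates 2 and 3.

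Other genes of these pathways, listed by their known roles, moved in both directions in DKO cells. Of the other sterol pathway genes, 4 higher and 4 lower of 11 tested passed in static DKO cells (median log2 −0.09), where 27.0% of all genes were higher and 27.2% lower. Among those that were higher, Sc4mol, the sterol methyl oxidase, was at 316 ± 15.8 against 145 ± 6.80 CPM (1.13 ± 0.10) and the sterol desaturase Sc5d differed by 0.63 ± 0.07 on the log2 scale. The lowest were the stress-induced pseudokinase Trib3 (−2.01 ± 0.10) and Mbtps2 (−0.60 ± 0.10), the site-2 protease that releases SREBPs. The other lower genes were Pgrmc1 (−0.39 ± 0.07) and Fdxr (−0.36 ± 0.11), and none of these 4 is an enzyme of sterol synthesis. Ggps1 (0.09 ± 0.09), Acat1 (−0.16 ± 0.09) and Ufd1l (−0.09 ± 0.06) did not pass. Of the genes of sterol uptake, transport and esterification, 5 higher and 4 lower of 12 tested passed, led by the lipoprotein receptor Scarb1 (0.94 ± 0.12) and the ester hydrolase Nceh1 (0.77 ± 0.08), and with the acyltransferase Soat1, which stores cholesterol as esters, at 93.4 ± 5.06 against 216 ± 4.53 CPM (−1.21 ± 0.06) and Stard5 (−0.74 ± 0.10) lowest. Of other fatty acid and glycerolipid synthesis genes, 9 higher and 9 lower of 25 tested passed. The elongase Elovl7 (2.48 ± 0.19) and the phosphatidate phosphatase Lpin1 (1.54 ± 0.16) were highest, and malic enzyme (Me1, 89.6 ± 3.17 against 407 ± 18.0 CPM, −2.18 ± 0.19), a source of NADPH for synthesis, was lowest of those well above the floor. Elovl3 also passed, at 0.148 ± 0.161 against 0.840 ± 0.0928 CPM, a DKO level at the floor of 3 counts, so that no fold change is given.

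Abca1 was higher in static DKO cells, as given above. A further list held LXR, its receptor partners, other targets and related transporters, not all of which are LXR targets. Of these, 1 higher and 7 lower of 13 tested passed there, where 27.0% of all genes were higher and 27.2% lower. The transporter Abca3 (1.80 ± 0.24) was the one that was higher, and Abcg8 (0.331 ± 0.0979 against 1.94 ± 0.183 CPM, a few counts per DKO library, −2.53 ± 0.49) and Arl4c (43.5 ± 4.28 against 170.4 ± 5.10 CPM, −1.97 ± 0.07) were lowest. Of fatty acid oxidation and PPAR genes, 6 higher and 6 lower of 19 tested passed, shares near those of all genes (27.0% and 27.2%). They ran from the coactivator Ppargc1a (4.47 ± 0.894 against 0.560 ± 0.167 CPM, 2.98 ± 0.30) and Ppara (1.58 ± 0.29) to Cpt1c (−0.37 ± 0.09) and Plin2, the lipid droplet coat protein (53.4 ± 1.98 against 116 ± 2.96 CPM, −1.12 ± 0.07).

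In control cells under FFSS, against static control cells, each of these lists again held genes that moved either way, where 17.7% of all genes were higher and 18.1% lower. Of the other sterol pathway genes, 2 of 11 were higher, Ufd1l (0.19 ± 0.06) among them, and 2 lower, with Trib3 (−0.98 ± 0.09) and Acat1 (−0.32 ± 0.09) at the bottom. Of the uptake, transport and esterification genes, 1 of 12 were higher, with Stard5 (0.60 ± 0.10) at the top, and 6 lower, with Vldlr (−0.82 ± 0.20) and Scarb1 (−0.34 ± 0.12) at the bottom. Of the other fatty acid and glycerolipid genes, 5 of 25 were higher, with Elovl7 (0.75 ± 0.22) and Mcat (0.66 ± 0.11) at the top, and 4 lower, with Me1 (−0.98 ± 0.18) and Acss2 (−0.45 ± 0.13) at the bottom. Of the genes listed with LXR, 2 of 13 were higher, with Abca3 (1.38 ± 0.25) and Arl4c (0.58 ± 0.07) at the top, and 5 lower, with Pltp (−0.86 ± 0.29) and Mylip (−0.70 ± 0.13) at the bottom. Of the oxidation and PPAR genes, 2 of 19 were higher, with Angptl4 (1.11 ± 0.15) and Cpt1a (0.27 ± 0.07) at the top, and 4 lower, with Acadm (−0.51 ± 0.09) and Acadl (−0.35 ± 0.07) at the bottom. Angptl4, an inhibitor of lipoprotein lipase that PPARs induce, was at 8.94 ± 0.547 against 4.15 ± 0.436 CPM, and Vldlr, a lipoprotein receptor, at 191 ± 72.3 against 337 ± 18.6 CPM. Between genotypes under FFSS, the lists gave, in the same order, 4 higher and 5 lower of 11, 6 higher and 4 lower of 12, 11 higher and 8 lower of 25, 2 higher and 5 lower of 13 and 8 higher and 7 lower of 19, where 27.0% of all genes were higher and 29.6% lower. In DKO cells under FFSS, 0 of the 80 genes on these 5 lists passed by edgeR (0.872% of all genes), 9 had an unadjusted p under 0.05 (13.5%) and DESeq2 passed 2 (2.68%). These shares lie near those of all genes. The interaction passed by edgeR for 4 of the 80 (3.97% of all genes), Trib3 (0.90 ± 0.14), Abca3 (−1.79 ± 0.33), Angptl4 (−0.90 ± 0.22) and Ppard (0.35 ± 0.09). In the interaction, 22 had an unadjusted p under 0.05 (23.8% of all genes) and DESeq2 passed 7 (7.54%).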

How the data were processed

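RNA was sequenced as single-end reads from 12 Ocy454 libraries, 3 in each of 4 groups. The deposited values are raw read counts per Ensembl mouse gene ID, made by the authors with STAR, mm9 and HTSeq without regard to strand, and reads aligned to several places or overlapping several genes were not counted for any gene. The study's methods name different versions of HTSeq in different places, so none is given here, and the version of STAR is not given in the sources used here. Depth was 17.6 to 19.2 M reads on genes per library. Rows that name no gene were kept out of library sizes and tests, and the share of reads outside genes was 5.10% to 10.0%. Symbols were matched for 98.9% of 37583 IDs.

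Genes with 0 counts in 2 or more libraries were removed, as in the study's methods. The remaining 14904 were fitted with edgeR 4.0.16 (R 4.3.3), TMM scaling and the robust quasi-likelihood test, over all libraries as 4 groups, with 5 contrasts including the interaction. A gene passed at a Benjamini-Hochberg adjusted p under 0.05 over all genes and was called when also over 2-fold. Values after ± are SD for levels and SE for log2 fold changes, and log2 CPM used a prior count of 2. Tested on simulated counts for control FFSS against static (200 of 14427 genes changed), the fit recovered 98% and 92% of genes changed by 1 and −1 on the log2 scale and 88% and 86% of those changed by 0.5 and −0.5. All simulated libraries were drawn around the control static mean with the same small spread. The difference between the real control FFSS libraries was not simulated, so these shares do not measure the power of the real comparison.

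The 32 genes, their groups and the further lists were chosen with earlier results of these data known. Values in every library are printed for genes called under FFSS or passing the interaction and for the 3 highest and 3 lowest passing in each comparison. Those of Insig1, Fdft1 and Cyp51 were added after their values were seen. Of the further lists, the 2 highest and 2 lowest passing genes are named for DKO against control static and control FFSS against static, except for 1 gene that is not reported here.

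Alternatives were RLE size factors, library totals alone, every gene with any count, filterByExpr, DESeq2 1.42.0, fits on only the 6 libraries compared, a replicate block, the share of reads outside genes as a covariate, and leaving out each library in turn or control FFSS replicates 2 and 3 together.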

Additional observations from a re-analysis of the deposited data

Results flagged for a closer look

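Insig2 and Elovl6 responded differently to FFSS in control and DKO cells by the interaction term of the edgeR fit. For Insig2 the DKO response minus the control response was 1.13 on the log2 scale (adjusted p = 0.00726, with 3.51e-15 to 0.0271 over the alternatives), since the RNA was lower in 3 of 3 control FFSS libraries than in any static control library while the DKO libraries overlapped. For Elovl6 it was −0.74 (adjusted p = 0.00808, with 2.82e-05 to 0.0322 over the alternatives), since the RNA was higher in 3 of 3 FFSS libraries of either genotype and the difference was larger in control cells.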

How the results depend on the processing

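Of 3120 values of listed genes under 21 alternatives, 2929 stayed on the same side of the threshold, 116 of them with a change of sign where neither fit passed, 42 no longer passed, 135 passed where they had not, and 14 reversed. The number of the 30 genes that passed or were called in DKO against control cells stayed within 1.5 times in every alternative run. For control FFSS against static, 5 passed (35.8% of all genes tested in the same fit, as for each share in parentheses here), compared with 11 by library totals alone (38.7%), 3 with every gene with any count (19.4%), 3 in the fit of 6 libraries (14.7%), 15 with the covariate of reads outside genes (15.4%) and 18 without control FFSS replicates 2 and 3 (25.5%), and with 3 to 18 when 1 library was left out (18 without control FFSS replicate 1, 55.0%). The 2 genes over 2-fold there became 1 with the covariate and 1 without control FFSS replicates 2 and 3, and 1 to 2 with 1 library left out. For DKO FFSS against static, 0 passed (0.872%), compared with 12 in the fit of 6 libraries (11.2%), 13 with the covariate (9.95%), 12 without control FFSS replicates 2 and 3 (13.8%) and 1 by DESeq2 (2.68%), and with 0 to 8 when 1 library was left out (8 without control FFSS replicate 1, 10.5%). In the interaction, 2 passed (3.97%), compared with 4 without control FFSS replicates 2 and 3 (8.89%) and 2 to 21 with 1 library left out (21 without control FFSS replicate 1, 37.6%), and the 1 gene over 2-fold became 0 with the covariate, 0 without control FFSS replicates 2 and 3 and 1 to 2 with 1 library left out. The cause was not tested in any of these.

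With the covariate, the log2 fold change under FFSS in control cells turned to 0.44 for Fdps, 0.52 for Fdft1, 0.033 for Srebf1 and 0.29 for Fads2, the interaction of Cyp51 to −0.32, and Scd2 in DKO against control static to 0.48. Without control FFSS replicates 2 and 3, Fdps was at 0.32, Fdft1 at 0.41 and Fads2 at 0.21 under FFSS in control cells, and the interaction of Cyp51 was −0.38. With 1 library left out, the control FFSS values ranged from −0.22 to 0.12 for Mvd, −0.13 to 0.13 for Sqle and −0.14 to 0.28 for Cyp51, and the interaction of Insig1 from −0.15 to 0.20, with the end that reversed always without control FFSS replicate 1.

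Libraries of the same replicate number did not deviate together (mean r across genes 0.00226 over 18 pairs, −0.0603 to 0.0631, against −0.00116 for different numbers), so the numbers were not taken to pair the samples. In a fit with a replicate block, 7 genes passed for control FFSS (34.5%), 0 for DKO FFSS (0.470%), 2 for the interaction (2.80%), and 24 (53.6%) and 27 (55.7%) for DKO against control under static and FFSS conditions. These limits rest on 3 libraries a group and on control FFSS libraries that differ from each other, and depth limits Abcg1 and, among the further lists, genes near the floor such as Elovl3 and Abcg8.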
